A study of Mus musculus with 12 samples.

Results

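The H3K4me3 regions described here lie inside protein-coding genes and away from their ends. H3K4me3 peaks of 6 libraries (chromosomes 1 to 19 and X) that shared 1 bp or more were merged into 24594 regions. A region was a member of the class if it overlapped the span of a protein-coding gene in a RefSeq table of genes (GRCm38.p6, which is mm10) and lay more than 1000 bp from both ends of every protein-coding gene of that table. The rule found 7071 members. Of the other regions, 11238 lay within 1000 bp of a gene end and 6285 were intergenic. Gene spans in this table run from the outermost start to the outermost end of any transcript, so a start that other annotations treat as the main one can count as internal. Of the members, 5901 (83.5%) contained no annotated start, while 1077 contained a start of their host gene and 93 a start of a noncoding gene only. The table of starts is incomplete, and it gave a strand for the host of 4522 of the 5901.

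CUT&Tag, in which an antibody guides a protein A fusion of the transposase Tn5 to cut next to the mark, was run on 500000 cells per library, with 60 min of tagmentation and 150 bp paired-end reads. The cells were organoids (spheroids or tumoroids in the labels) derived from PyMT mammary tumours of the mouse, with the genotype label WT and the cell type label breast cancer in every group. PyMT is the middle T antigen of polyomavirus, an oncogene used to raise mammary tumours in mice. The 3 groups were Ctrl, SR2 and THC, each taken 3 days after treatment with 2 libraries for H3K4me3 and 2 for H3K27me3. Neither the doses nor the compound behind the name SR2 are given in the sources used here, and the series names the cannabinoid receptor CB2R in its title. The number of tumours or animals behind the organoids is likewise not stated there. Replicate 1 is batch 1 and replicate 2 is batch 2 in the labels, where nothing tells separate cultures from repeat preparations, and p-values therefore measure only the spread between these libraries, which may be technical.

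H3K4me3 is laid down by complexes of the SET1 and MLL families around the starts of genes that are transcribed or ready to be, above all where CG dinucleotides are dense, because those complexes hold subunits that bind unmethylated CG. Inside a gene the mark is known at alternative promoters that give shorter proteins, at promoters of antisense or other nested noncoding RNAs, and, at a lower level, at some enhancers. H3K27me3 is the mark of Polycomb repression and is found at silent developmental genes. In the mammary gland, several lineage regulators are known to be transcribed from a promoter inside the annotated span of the gene, among them Trp63, Runx1 and Elf5.

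The sequences that follow are the 250 bases before 10 annotated starts that lie in members, from RefSeq promoters of GRCm38.p6, 5′ to 3′ on the strand of the transcript, with each CG in capitals. They are shown because the density of CG separated the marked from the unmarked internal starts more clearly than the 3 motifs searched. The starts of Ptch1, Runx1 and the first of Dst stand for dense CG, those of Elf5 and the second Dst start for lower density, and that of Lmna for a wide member with a single CG before its start. Nhsl1 and Igfbp3 are starts in members found in each Ctrl library but not in THC, and Kcnq1ot1 and Airn are imprinted noncoding RNAs that start inside a protein-coding gene.
Elf5: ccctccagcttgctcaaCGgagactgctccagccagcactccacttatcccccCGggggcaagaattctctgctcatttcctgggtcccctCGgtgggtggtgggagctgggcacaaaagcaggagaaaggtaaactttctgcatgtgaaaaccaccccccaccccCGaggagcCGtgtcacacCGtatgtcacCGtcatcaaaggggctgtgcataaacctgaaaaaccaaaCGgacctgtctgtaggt
Lmna: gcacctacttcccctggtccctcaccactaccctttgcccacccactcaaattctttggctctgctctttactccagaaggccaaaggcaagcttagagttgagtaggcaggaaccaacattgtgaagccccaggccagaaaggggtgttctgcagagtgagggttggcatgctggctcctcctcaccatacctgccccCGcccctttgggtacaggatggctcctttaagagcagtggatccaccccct
Runx1: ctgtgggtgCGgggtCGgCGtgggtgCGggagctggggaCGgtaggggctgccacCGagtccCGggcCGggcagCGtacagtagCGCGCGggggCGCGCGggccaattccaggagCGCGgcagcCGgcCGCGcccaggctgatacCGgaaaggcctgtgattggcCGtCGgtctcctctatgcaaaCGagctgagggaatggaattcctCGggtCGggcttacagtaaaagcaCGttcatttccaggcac
Ptch1: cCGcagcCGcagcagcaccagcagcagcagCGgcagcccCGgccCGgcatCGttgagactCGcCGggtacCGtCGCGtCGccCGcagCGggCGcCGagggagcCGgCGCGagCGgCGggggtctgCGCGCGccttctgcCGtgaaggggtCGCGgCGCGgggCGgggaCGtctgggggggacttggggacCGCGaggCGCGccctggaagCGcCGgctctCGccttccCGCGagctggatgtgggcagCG
Dst start at 104 kb: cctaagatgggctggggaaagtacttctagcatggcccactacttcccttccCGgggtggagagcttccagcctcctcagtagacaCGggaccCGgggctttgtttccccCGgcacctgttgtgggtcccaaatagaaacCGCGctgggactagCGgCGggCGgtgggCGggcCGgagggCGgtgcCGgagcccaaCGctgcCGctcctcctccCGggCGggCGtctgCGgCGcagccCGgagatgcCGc
Dst start at 252 kb: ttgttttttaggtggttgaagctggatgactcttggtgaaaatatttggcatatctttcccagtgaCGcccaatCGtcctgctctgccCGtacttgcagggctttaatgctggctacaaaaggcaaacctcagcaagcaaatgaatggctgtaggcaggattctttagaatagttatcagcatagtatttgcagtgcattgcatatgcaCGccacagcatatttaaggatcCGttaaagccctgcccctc
Nhsl1: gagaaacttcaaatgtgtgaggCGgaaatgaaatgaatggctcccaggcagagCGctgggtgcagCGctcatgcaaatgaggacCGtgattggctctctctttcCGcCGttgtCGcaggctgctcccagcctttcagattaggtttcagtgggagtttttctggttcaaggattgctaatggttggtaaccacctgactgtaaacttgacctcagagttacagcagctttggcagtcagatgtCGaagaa
Igfbp3: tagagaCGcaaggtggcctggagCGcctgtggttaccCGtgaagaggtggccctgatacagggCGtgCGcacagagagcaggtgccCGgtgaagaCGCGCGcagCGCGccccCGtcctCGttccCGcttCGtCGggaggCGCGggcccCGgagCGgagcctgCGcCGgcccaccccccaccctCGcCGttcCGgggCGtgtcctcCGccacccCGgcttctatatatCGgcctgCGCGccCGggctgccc
Kcnq1ot1: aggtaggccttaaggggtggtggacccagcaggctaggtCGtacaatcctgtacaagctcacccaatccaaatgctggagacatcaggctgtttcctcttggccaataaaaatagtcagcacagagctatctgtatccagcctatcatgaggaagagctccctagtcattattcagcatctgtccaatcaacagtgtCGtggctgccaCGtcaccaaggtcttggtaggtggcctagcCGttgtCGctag
Airn: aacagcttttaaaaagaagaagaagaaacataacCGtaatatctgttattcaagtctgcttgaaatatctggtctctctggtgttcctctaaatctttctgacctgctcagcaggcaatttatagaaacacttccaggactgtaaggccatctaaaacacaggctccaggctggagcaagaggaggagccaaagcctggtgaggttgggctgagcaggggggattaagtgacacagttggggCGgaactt
The Ptch1 bases lie at chr13:63565736-63565985 on the minus strand and hold 41 CG, and those of Runx1 at chr16:92697330-92697579, also on the minus strand, hold 27. The Dst pair lies on the plus strand at chr1:34011345-34011594 with 22 CG and at chr1:34160010-34160259 with 5. The Elf5 bases at chr2:103423818-103424067 (plus strand) hold 8 CG, and those of Lmna at chr3:88503353-88503602 (minus strand) hold 1. Nhsl1 at chr10:18469731-18469980 (plus strand) has 8 and Igfbp3 at chr11:7213924-7214173 (minus strand) has 32. Kcnq1ot1 lies at chr7:143296548-143296797 on the minus strand with 5 CG, and Airn at chr17:12741061-12741310 on the plus strand with 2.

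For H3K4me3 the Ctrl lists held 18383 and 16442 peaks (replicates 1 and 2), the SR2 lists 14812 and 15189, and the THC lists 11924 and 13227. Read totals are not part of the peak lists. The genome-wide background pileup, recovered from the deposited fold and −log10 p with 100% of summit pileups whole within 0.005, was 1.05, 1.02, 1.16, 1.10, 0.752 and 1.52 in the same order. Background and peak number did not share an order, since THC replicate 1 had the lowest background and the fewest peaks while THC replicate 2 had the highest background and the second-fewest peaks. At gene ends the markers of mammary epithelium were marked in 9 of 9 genes in every library but THC replicate 1, where 5 of 9 were. Markers of blood cells were marked in at most 1 of 7 genes per library and those of endothelium in at most 1 of 5, while the fibroblast list had 1 of 7 (Col1a1) in each library. Adipocyte markers (0 to 3 of 5, with Adipoq and Fabp4 in no library) and nerve sheath markers (1 to 2 of 3) were also lowest in THC replicate 1. The part of this library in the results below was not tested, and values without it are given for only some of them. A missing peak means no call by the authors, not a signal of 0. In bulk material, fewer cells that carry the mark and less of the mark per cell cannot be told apart.

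Members had shorter and lower peaks than regions at gene ends and longer and higher ones than intergenic regions. The median member peak was 504 to 642 bp long across the 6 libraries, against 780 to 1192 bp at gene ends and 308.5 to 494 bp between genes. The authors' fold enrichment at the summit had a median of 4.73 to 5.13 in members, 6.84 to 9.45 at gene ends and 4.15 to 4.89 in intergenic regions. Ranked by the authors' −log10 q within a library, the median member sat at percentile 25.9 to 29.3 and the median gene-end region at 57.4 to 67.1. Recovered summit pileups, in fragments, had medians of 16 to 27 in members, 23 to 111 at gene ends and 7 to 14 between genes. In each of these 4 measures members were below gene-end regions in 6 of 6 libraries and above intergenic regions in 6 of 6 (exact two-sided sign-flip test over libraries, p = 0.031 each, the smallest that 6 libraries allow). The 12 tests computed covered these 4 measures, the share of the class marked and the share with a start, in both contrasts. Each p was 0.031, so the Benjamini-Hochberg adjusted value is the same. The share with a start depends in part on the rule, which sorts regions by gene span and distance from gene ends. A longer region also reaches a gene end more easily, so the length contrast with gene ends is tied to the rule. In these measures the tests cannot separate a property of the class from the rule. The mean difference from gene ends was −463 ± 129 bp in peak length and −3.32 ± 1.02 in fold (SD, n = 6 libraries).

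Most members appeared in a single library. Of the 7071, 3806 (53.8%, Wilson 95% interval 52.7 to 55.0) were marked in 1 library, 816 in 2, 524 in 3, 355 in 4, 367 in 5 and 1203 (17.0%, 16.2 to 17.9) in all 6. At gene ends 76.3% of regions were marked in all 6 libraries, and between genes 5.73%. Intervals here and below cover counting error only. The members marked in 1 library had a median width of 326 bp, and those marked in all 6 of 1327 bp, close to the 1358 bp of gene-end regions marked in all 6. Ctrl replicate 1 alone held 1353 of the members seen in no other library, the largest number, and THC replicate 2 held 294, the smallest.

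Recurrence and width moved together with annotated starts. The RefSeq promoter table used here gives starts for 17274 of the 21631 protein-coding genes and for some noncoding genes, and it is not complete. Of members marked in 1 library, 1.66% contained a start, and the share went up with each step to 7.35%, 10.7%, 22.0%, 39.8% and 63.8% (767 of 1203) for 2, 3, 4, 5 and 6 libraries. Of the members marked in all 6 libraries, 436 contained no start of the table. Their median width of 1255 bp was near that of the 736 recurrent members with a start of the host gene, 1368.5 bp. The strand of the host, read from the same table, was known for only 237 of the 436. For the others a missing start may reflect a host that the table does not list.

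**Figure D1:**
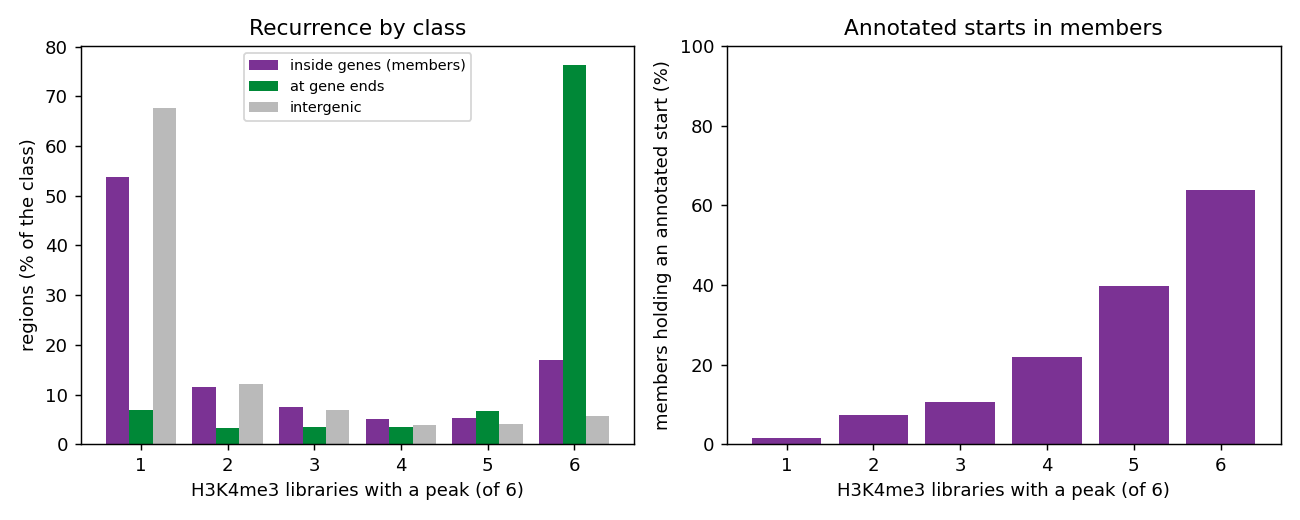
Left, share of each class of H3K4me3 regions (% of the class) by the number of libraries with a peak, for members, regions within 1000 bp of a gene end and intergenic regions. Right, share of members (%) that contain an annotated start, by the number of libraries. Members are most often seen in 1 library (53.8%), and the share with a start goes from 1.66% to 63.8%.

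Read from the side of the starts, the table holds 3881 protein-coding starts more than 1000 bp inside their own gene's span and away from other gene ends, in 2929 genes. Of these, 1268 lay in a member (894 in a member marked in all 6 libraries), 308 in a region that reached a gene end, and 2305 in no H3K4me3 region. Over the 300 bases from 250 before to 50 after the start, starts in members marked in all 6 had a median of 23 CG (quartiles 16 and 31), the same median as the 9645 marked starts at gene ends, while unmarked internal starts had 4 (2 and 8). The GC content had a median of 63.8% at starts in members marked in all 6, 50% at unmarked internal starts and 54.7% over all internal starts. Of internal starts with 0 to 5 CG, 1.96% lay in an H3K4me3 region marked in all 6 libraries. The share was 21.7% with 6 to 15 CG, 64.4% with 16 to 25 and 74.6% with 26 or more. The regions counted in these shares are members and regions that reached a gene end. The printed Ptch1, Runx1 and first Dst windows belong to the dense end of this range. Lmna, with 1 CG in the 250 bases before its start, is an exception to it that was chosen after its values were seen.

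The 3 motifs searched on both strands of the same 300 bases differed less. TATAAA, the core of the TATA box, was found in 4.59% of the starts in members marked in all 6, in 14.9% of the unmarked internal starts and in 12.7% of all 21045 protein-coding starts of the table. CCAAT was found in 34.2%, 36.2% and 38.5%, and the E-box CACGTG, which reads the same on both strands and contains a CG, in 9.17%, 4.47% and 7.91%. These are letter matches in the windows and not sites shown to be bound.

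Around the internal starts the mark lay mostly downstream. In the 846 members with exactly 1 host start and no other, the peaks reached a median of 310 bp before and 742 bp after the start in Ctrl replicate 1, and 182 and 539 bp in THC replicate 1. The median after the start minus the median before it was 357 to 432 bp in the 6 libraries (396 ± 30.05 bp, SD). This difference was positive in 6 of 6 (exact two-sided sign-flip test, p = 0.031). The summit had a median position of 121 to 146.5 bp after the start, and 84.2% to 86.8% of these members reached farther after the start than before it. Ctrl, SR2 and THC libraries shared this shape.

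**Figure D2:**
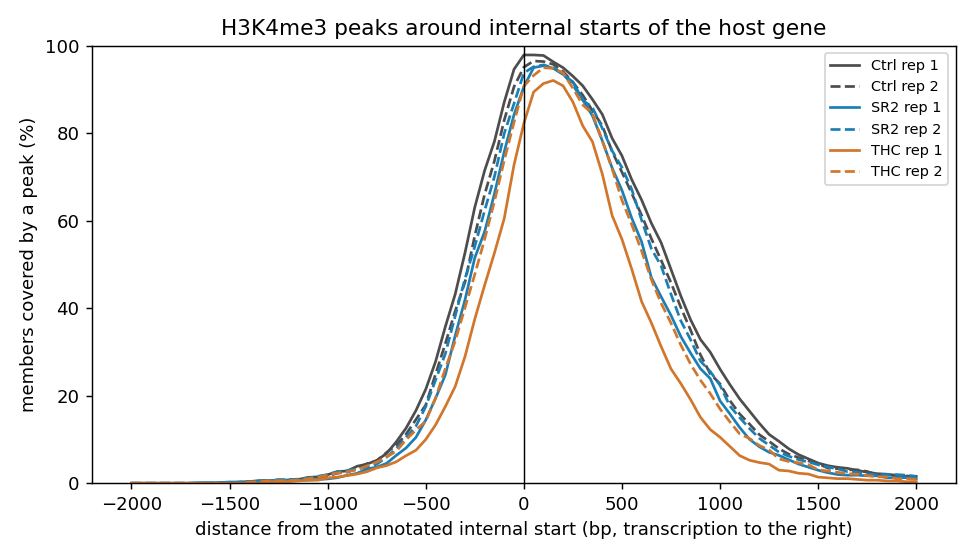
Of the members with a single host start that are marked in the library, share (%) covered by a peak at each distance from that start (bp, direction of transcription to the right), one line per library. All 6 lines are highest between 0 and 150 bp after the start and extend farther to the right than to the left, and THC replicate 1 has the narrowest line.

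Members marked in many libraries lay nearer the 5′ end. Strand was known for the hosts of 5660 members. The middle of a member lay a median of 31.9 kb from the host's 5′ end if it was marked in 1 library and 7.6 kb if marked in all 6, and 52.0% and 76.1% lay in the 5′ side of the gene span. Members with a host start that were marked in all 6 had a median of 6.3 kb and 82.2%, and those marked in 1 library 7.5 kb and 78.4%. For members with no start the values were 13.5 kb and 58.2% in all 6, and 32.3 kb and 51.5% in 1 library. Hosts differed in length as well, with a median of 92.0 kb for members marked in 1 library and 51.4 kb for all 6. Of all members, 700 (9.90%) lay within 1000 bp of another H3K4me3 region, and for 235 of these the nearest region was one at a gene end. The members just outside the limit of the rule, 1001 to 1100 bp from a gene end, numbered 101 and were marked in all 6 libraries in 42.6% of cases, and the 120 gene-end regions at 901 to 1000 bp in 28.3%.

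The members fell in 4629 of the 21631 protein-coding genes (21.4%), with a median length of 52.1 kb against 17.3 kb for all. The share of genes with a member went from 5.17% at 2 to 10 kb to 65.5% at 200 kb and more. Of the hosts, 3186 had 1 member, 123 had 5 or more and 1144 had one marked in all 6 libraries. Aopep, an aminopeptidase gene of 361 kb, had 20, and Dst, Gse1, Nfix and Nhsl1 had 10 each. Nfix and Nfia (9 members, 4 of them marked in all 6) encode nuclear factor I proteins, and Dst encodes the cytoskeletal linker dystonin. At Dst 1 of the 10 members was marked in all 6 libraries. It covers the CG-dense start printed above and had 1184, 997, 802, 859, 859 and 824 bp (covered bp in Ctrl 1 and 2, SR2 1 and 2, THC 1 and 2, an order kept below). The member over the CG-poor Dst start had 784, 668, 396, 725, 0 and 844 bp. The remaining 8 Dst members held no start and were marked in at most 5 libraries.

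Among the 10 widest members marked in all 6 libraries, Midn, which encodes the nuclear protein midnolin, was the widest with 3576, 3575, 3361, 3443, 2449 and 2772 bp. Kdm6b, a demethylase of H3K27, had 3217, 3448, 3074, 3248, 2406 and 3113 bp. Ptch1, the receptor of Hedgehog ligands, had 3303, 2765, 2737, 3173, 2045 and 2589 bp around the start printed above. Arid1a, a subunit of the BAF remodelling complex, had the smallest range of the 10, with 2872, 2877, 2813, 2877, 2727 and 2868 bp. The others were Ubtf (a factor of ribosomal RNA transcription), Cpeb2 (an RNA-binding protein), Kmt2d (a methyltransferase of H3K4), Tfap2c, Rbpj (the DNA-binding factor of Notch signalling) and Hivep2 (a zinc finger protein), with 1541 to 3074 bp in single libraries. THC replicate 1 had the lowest value in each of the 10.

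Of 27 genes listed for a known internal promoter, 26 held a member, with 83 members in all, and 14 genes held one marked in all 6 libraries. These genes have a median length of 176 kb, above the 52.1 kb of all hosts. Lmna encodes the nuclear lamins A and C. Its wider member (chr3:88501344-88503742) had 2242, 2196, 2200, 2399, 1496 and 2225 bp, with overlapping groups. Dnmt3a, a DNA methyltransferase whose short isoform starts inside the gene, had 2108, 2255, 1833, 2271, 1644 and 2062 bp at its wider member. Runx1 is a haematopoietic and mammary transcription factor with a distal and a proximal promoter. The member over the internal start printed above (chr16:92696576-92697920) had 1319, 1234, 1150, 1198, 270 and 1149 bp, and a neighbour without a start (chr16:92693978-92695953) 1906, 1298, 734, 981, 529 and 1241 bp. In that neighbour both Ctrl libraries were above the 4 treated ones, with log2 changes of −0.62 (SE 0.26) for SR2 and −0.42 (SE 0.26) for THC that did not pass (limma adjusted p 0.555 and 0.368).

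Lineage regulators of the mammary gland held 75 members in 27 of 36 genes, 17 of them marked in all 6 libraries. Elf5, the regulator of the alveolar lineage, had 1323, 333, 763, 891, 243 and 805 bp at its internal start (chr2:103423824-103425244), and the spread within Ctrl (828 ± 700 bp, SD, n = 2) was larger than its distance from SR2 (827 ± 90.5 bp) or THC (524 ± 397 bp). Trp63, the regulator of basal cells, had 3 members. The wider ones had 1248, 596, 0, 747, 0 and 497 bp (chr16:25802595-25803878) and 1035, 515, 358, 446, 0 and 437 bp (chr16:25804460-25805494), so that replicate 1 of THC lacked both and replicate 2 had both. Trp63 has no start in the promoter table, and its members were not matched to a promoter. Esr1 encodes the oestrogen receptor alpha, and its widest member had 887, 536, 0, 755, 0 and 399 bp, again with no peak in replicate 1 of SR2 and of THC. Gata3, the luminal regulator, held 8 members in a span of 30.9 kb, 3 of them marked in all 6 libraries, and the widest had 818, 787, 710, 705, 460 and 540 bp. Tfap2c, an AP-2 factor of luminal cells, had 2839, 2763, 2945, 2807, 1541 and 2590 bp.

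Genes of cell adhesion and junctions held 72 members in 25 of 41 genes. The widest, in Macf1, a linker of actin and microtubules, had 1995, 1971, 1739, 2022, 1613 and 1794 bp, and Tjp1, a tight junction scaffold, had 1346, 1307, 1121, 1343, 968 and 1292 bp. After centring their log2 changes in THC were 0.18 (SE 0.09) and 0.17 (SE 0.08), above 0, and did not pass (limma adjusted p 0.308 and 0.276). Others stood lower in THC, of which Epcam, Cdh1 and Shroom3 were chosen after their values were seen. Epcam, an epithelial adhesion molecule, had 1423, 1065, 1258, 1078, 285 and 683 bp, with both THC libraries below the other 4 (log2 change against Ctrl −0.75, SE 0.23, limma adjusted p 0.148). Ctnnd1, which encodes p120 catenin, had 1639, 1530, 1493, 1333, 893 and 954 bp, with both THC libraries below the other 4. Cdh1, which encodes E-cadherin, had 555, 589, 441, 407, 0 and 0 bp. Shroom3, a regulator of apical constriction, held 4 members, of which 1 over a host start was marked in all 6 (1004, 926, 815, 847, 559 and 606 bp) and 3 had no peak in THC. Lists of receptor tyrosine kinase signalling (42 members in 22 of 31 genes) and of writers and erasers of the 2 marks (6 members in 4 of 15) had 2 and 3 members marked in all 6. The cannabinoid list had 7 members in 4 of 9 genes and none marked in all 6. Dagla, a diacylglycerol lipase that makes an endocannabinoid, had 707, 580, 0, 418, 0 and 0 bp at its widest.

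Some of the members marked in all 6 libraries lay at nested noncoding RNAs. In all, 520 members (7.35%) lay within 1000 bp of an end of a gene that is not protein-coding, against 16.8% of intergenic regions. Of the 1203 members marked in all 6 libraries 203 did (16.9%). Among other regions marked in all 6, the share was 16.9% at gene ends and 60.8% between genes. Where a start of a noncoding gene in a member and the strand of the host were both known (158 members), the noncoding gene ran against the host in 154 and along it in 5, where a member can hold both kinds. Only 66 members with a start of a noncoding gene alone had a known strand, so most of the 158 also held a host start. Kcnq1ot1 and Airn, the imprinted antisense RNAs of Kcnq1 and Igf2r, were marked in all libraries. The member at Kcnq1ot1 (chr7:143294599-143296864) had 2266, 1979, 1459, 1707, 1138 and 1621 bp, and that at Airn (chr17:12741267-12742858) 1587, 1508, 1376, 1393, 974 and 1442 bp. Both had few CG before the annotated start, as printed above. Gnas, an imprinted gene with several promoters, had 1890, 1607, 1599, 1653, 1242 and 1579 bp at its widest member. The member beside Peg13, an imprinted RNA within Trappc9 (chr15:72809135-72811013), had 1728, 1468, 446, 1355, 0 and 0 bp. At Vmp1 the member beside Mir21a, the gene of the microRNA miR-21, had 2221, 1778, 1377, 1973, 571 and 1734 bp. These imprinted genes and Vmp1 were chosen after their values were seen.

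**Figure D3:**
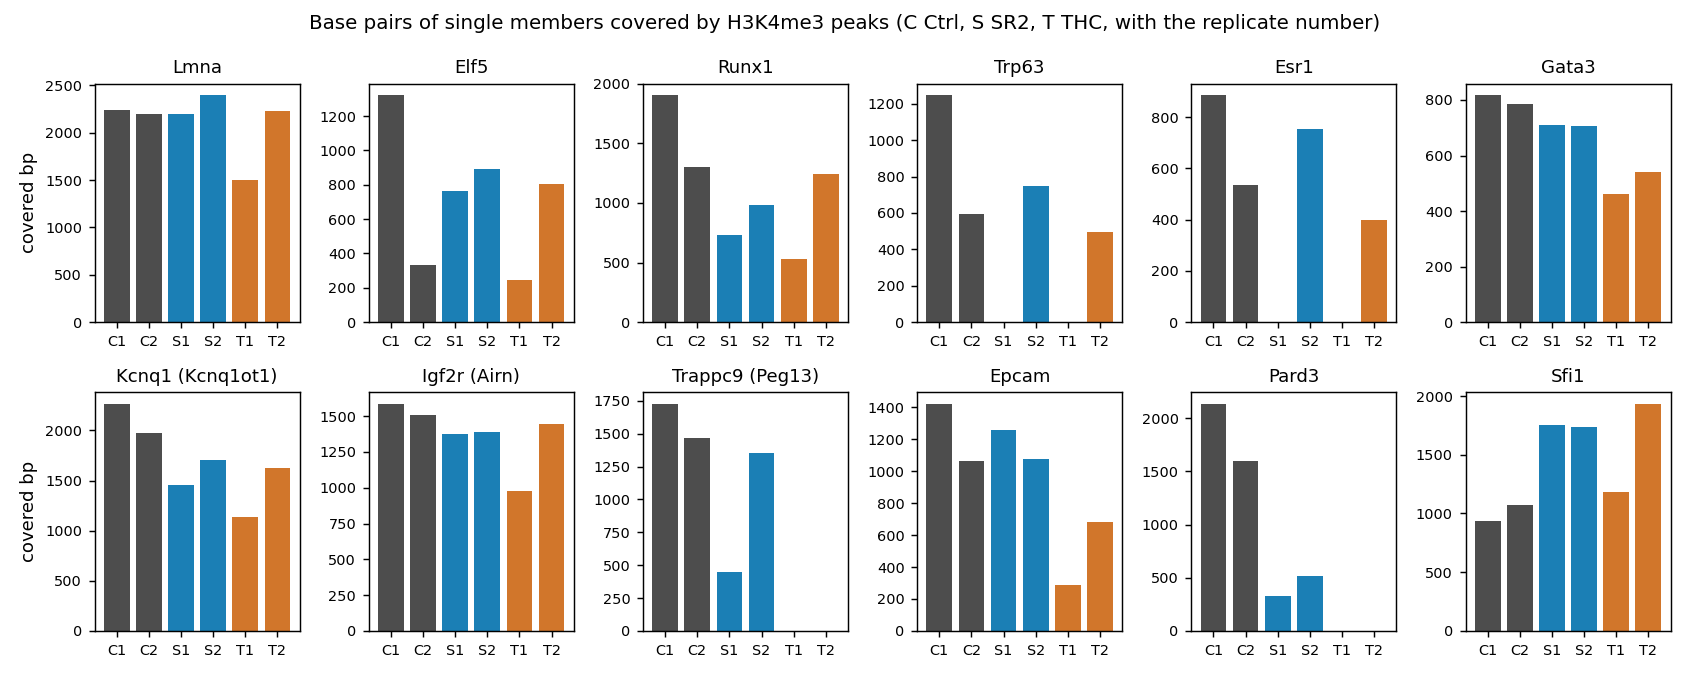
Covered bp of H3K4me3 in single members, 1 panel per host gene with its widest member, 1 bar per library (Ctrl, SR2 and THC, replicates 1 and 2), each panel with its own axis from 0. Lmna and the members at Kcnq1ot1 and Airn have a peak in 6 of 6 libraries, Trp63 and Esr1 lack one in replicate 1 of SR2 and THC, and Pard3 and Trappc9 lack one in both THC libraries.

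H3K27me3 was rare at members. For H3K27me3 the Ctrl lists held 2708 and 386 peaks, the SR2 lists 839 and 157, and the THC lists 983 and 70. In all, 191 members (2.70%) overlapped a merged H3K27me3 region by at least 1 bp, against 8.38% of gene-end and 3.56% of intergenic regions. Of these 191, 92 were marked by H3K4me3 in all 6 libraries, and 81 had H3K27me3 in Ctrl replicate 1 alone, the library with the most H3K27me3 peaks. Only 8 members overlapped H3K27me3 in all 6 libraries of that mark, and each of the 8 had H3K4me3 in 5 or 6 libraries. They were found in Aida, Camk1d, Cdk8, Sfi1 (2 members), Tmem267, Zc3h7a and the overlapping genes Cmss1 and Filip1l, with widths of 330 to 1935 bp and a median of 439 bp, and were named after their values were seen. The list of THC replicate 2 held 70 peaks in all, and 17 members overlapped it. Whether reads in these intervals come from a single locus was not tested, and their values are uncertain for that reason. Of the 20 members with H3K27me3 in 3 or 4 libraries, some were in genes of developmental transcription factors (Ebf3, Hmx2, Evx1 and Sp9), also chosen after their values were seen.

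SR2 and THC were each compared with Ctrl to ask whether the class changes with treatment. Fewer members had a peak after either treatment, and so did fewer regions of every kind. Ctrl libraries had 4480 and 3575 marked members, SR2 libraries 2688 and 2951, and THC libraries 1688 and 2101, so the 3 groups did not overlap. The means were 4027.5 ± 640, 2819.5 ± 186 and 1894.5 ± 292 (SD, n = 2), ratios to Ctrl of 0.700 and 0.470. With 2 libraries against 2 the exact two-sided permutation test gives p = 0.33, the smallest it allows, and 4 treated libraries against 2 gave p = 0.13, again the smallest. Within batch 1 the difference from Ctrl was −1792 for SR2 and −2792 for THC, and within batch 2 it was −624 and −1474. The mean differences of −1208 for SR2 and −2133 for THC were −779 and −1732.5 without Ctrl replicate 1, and −1662.5 and −2594 without Ctrl replicate 2. Without THC replicate 1 the THC difference was −1926.5. With equal numbers of peaks the differences were −12 and −28.5.

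The share of peaks that lay in members was lower in treated libraries with all peaks and similar in all libraries with equal numbers of peaks. Of the peaks of the Ctrl libraries, 24.4% and 22.0% lay in members (Wilson 95% intervals 23.8 to 25.1 and 21.4 to 22.7). For SR2 the shares were 18.4% and 19.7%, and for THC 14.6% and 16.2% (14.0 to 15.3 and 15.6 to 16.8). When the 11924 strongest peaks by −log10 q were taken from each library, as many as the shortest list holds, the shares were 14.3%, 14.5%, 14.4%, 14.4%, 14.7% and 14.2%. The differences from Ctrl were then 0.0252 percentage points for SR2 and 0.0335 for THC. To reach 11924 peaks the lists were cut at a −log10 q of 11.9 in Ctrl replicate 1 and 1.31 in THC replicate 1. Depth and treatment cannot be told apart in the full lists, since the peak lists hold no read totals.

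**Figure D4:**
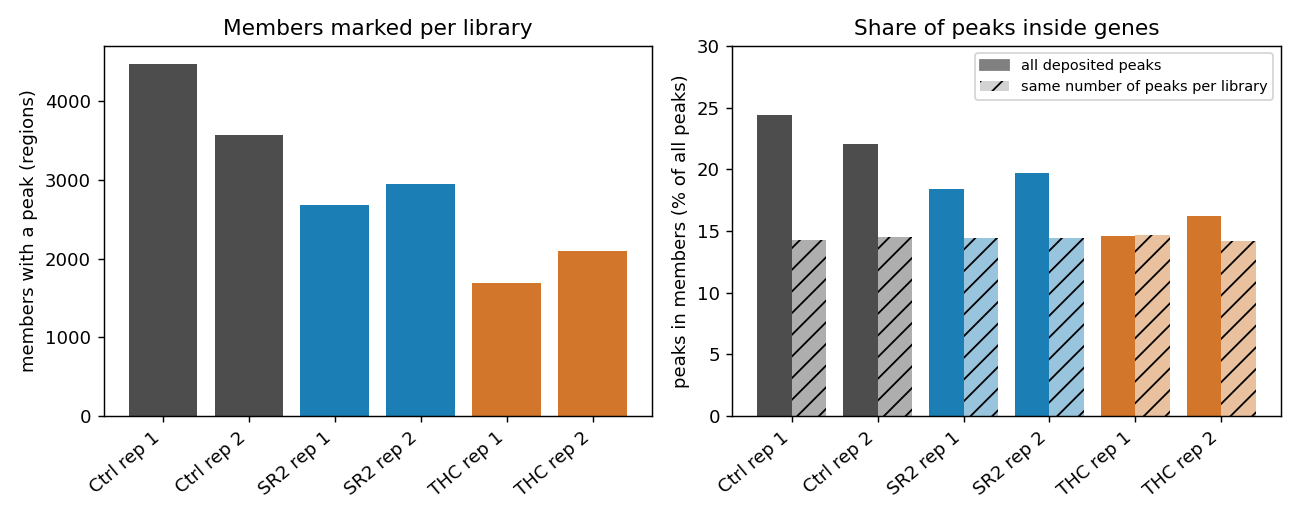
Left, number of members with a peak in each library. Right, share of each library's peaks that lie in members (%), from all deposited peaks (solid) and from the 11924 strongest peaks of each library (hatched). With all peaks Ctrl is highest (24.4% and 22.0%) and THC lowest, and with equal numbers all 6 libraries lie between 14.2% and 14.7%.

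Of the 2813 members marked in both Ctrl libraries, SR2 replicates 1 and 2 had a peak at 64.5% and 78.7%, and the THC replicates at 45.4% and 60.7%. For the 993 with a start of the host gene these shares were 91.5%, 96.4%, 76.4% and 89.3%, and for the 1745 with no start 48.9%, 68.4%, 27.8% and 44.6%. These members were chosen for their peaks in Ctrl, so the shares describe them and are no test of treatment. The same order was present between the Ctrl libraries. Of members marked in Ctrl replicate 1, 94.1% of the 1055 with a host start and 52.2% of the 3341 with no start were marked in Ctrl replicate 2. In the other direction, of the 1800 members marked in both SR2 libraries 98.6% and 96.6% were marked in Ctrl replicates 1 and 2, and of the 1232 marked in both THC libraries 99.6% and 99.3% were. Among members with a host start, 42 had 0 to 5 CG in the window, 260 had 6 to 15, 306 had 16 to 25 and 385 had 26 or more. The shares kept in these sets were 64.3%, 89.2%, 92.2% and 95.6% in SR2 replicate 1 and 83.3%, 97.3%, 95.1% and 98.2% in SR2 replicate 2, the latter with no steady order. In THC they were 40.5%, 60.0%, 82.4% and 86.8% in replicate 1 and 66.7%, 82.3%, 92.5% and 94.0% in replicate 2. The median Ctrl extent of the sets was 892, 936, 1090 and 1315 bp in the same order.

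Shares kept by extent in Ctrl carry the same choice of regions. Among regions with a Ctrl mean of 600 to 800 bp, 59.5% and 83.4% of the 523 members were kept in SR2 replicates 1 and 2 and 22.8% and 53.2% in THC, against 84.1%, 93.6%, 57.4% and 77.9% of 1012 gene-end regions. At 1500 bp and more the shares were 95.7% or higher for members and 98.1% or higher for gene-end regions. Intergenic regions of 600 to 800 bp had 58.6%, 80.2%, 23.8% and 52.2%, near the values of members. Between the Ctrl libraries, 78.0% of the 655 members and 91.2% of the 940 gene-end regions with 600 to 800 bp in Ctrl replicate 1 were marked in Ctrl replicate 2, so members were below gene-end regions there too. With equal numbers of peaks, an alternative added after the data were seen, 91.2%, 94.9%, 78.1% and 91.1% of 1538 members were kept, against 97.6%, 98.7%, 92.7% and 97.7% of 9232 gene-end regions.

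**Figure D5:**
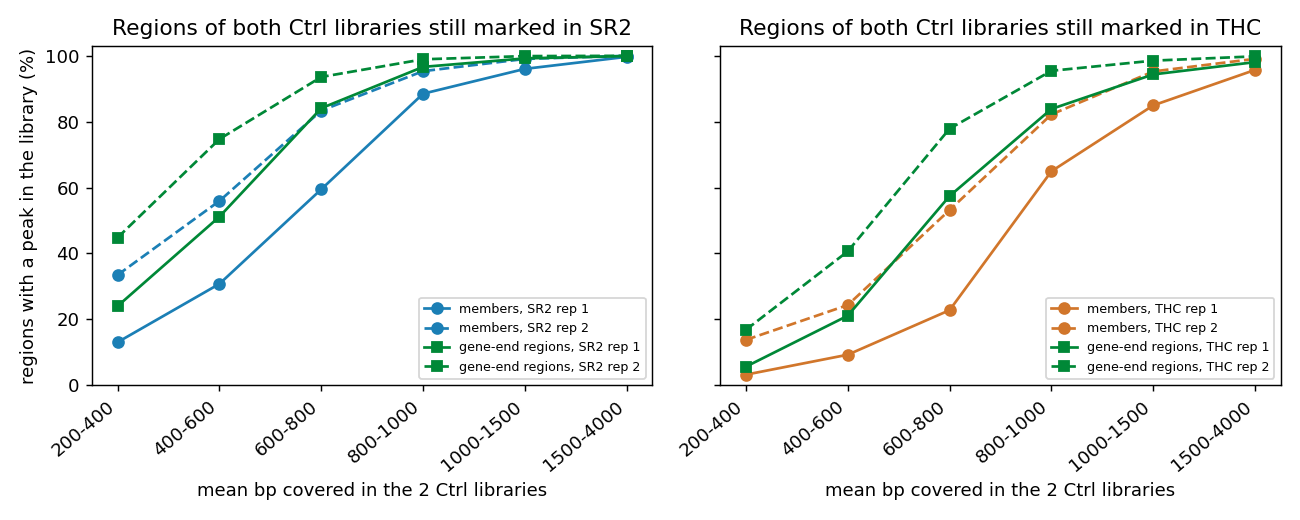
Share of regions marked in both Ctrl libraries that have a peak in each SR2 (left) or THC (right) library (%), by mean covered bp in Ctrl, for members (circles) and gene-end regions (squares), with replicate 1 solid and replicate 2 dashed. Members lie below gene-end regions of the same replicate in every bin but the widest of SR2 replicate 2, where both are at 100%.

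A member is called Ctrl-only where each Ctrl library had a peak and the 2 libraries of the treatment had none. For SR2 they numbered 512 (18.2% of 2813), where 7.84% of all regions marked in both Ctrl libraries were Ctrl-only. For THC they numbered 1049 (37.3%), against 17.5% of all regions, and 1105 members without THC replicate 1. Intergenic regions marked in both Ctrl libraries were Ctrl-only more often than members, in 26.4% of cases for SR2 and 51.1% for THC. At gene ends the shares were 2.1% and 6.8%. When Ctrl replicate 1 or 2 was left out, a peak in the remaining Ctrl library was enough, and 1834 and 2646 members were Ctrl-only for THC and 1223 and 1903 for SR2. The reverse was rare, with 12 SR2-only members (0.667% of 1800, background 0.255%) and 3 THC-only members (0.244% of 1232, background 0.108%), counts that went to 313 and 381 THC-only members without THC replicate 1 or 2, again with a peak in 1 library enough, and to 449 and 728 SR2-only members without SR2 replicate 1 or 2. With equal numbers of peaks the Ctrl-only members came to 45 for SR2 and 108 for THC, and the SR2-only and THC-only members to 23 and 15. With all peaks, 2.25% of intergenic regions marked in both SR2 libraries were SR2-only and 2.08% of those marked in both THC libraries were THC-only. The 2 comparisons share the Ctrl libraries.

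Among the 8 widest Ctrl-only members of SR2, Plekha7, which encodes a protein of adherens junctions, had 1133 and 1179 bp in Ctrl and no peak in the other 4 libraries (chr7:116197394-116198923). Igfbp3, a secreted protein that binds insulin-like growth factors, had 1464 and 839 bp in Ctrl around the start printed above and no peak elsewhere. Syne2, a nesprin of the nuclear envelope, had 988 and 1061 bp, Trib2, a pseudokinase, 1085 and 961 bp, and Pld1, a phospholipase, 1115 and 908 bp, each with no treated peak. Vamp5 and Ezr, which encodes ezrin, had no SR2 peak and a peak of 350 and 261 bp in 1 THC library each, and Epb41l4a had 1292 and 510 bp in Ctrl alone. Of these 8, 3 remained Ctrl-only when peaks below a −log10 q of 5 were dropped and 1 with equal numbers of peaks.

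For THC the widest Ctrl-only members were at Pard3, Plec, Trappc9, Ppard, Nhsl1, Ggta1, Prrc2b and Ppp2r5c. Pard3, a polarity protein of tight junctions, had 2137, 1598, 326, 520, 0 and 0 bp (chr8:127439127-127441410). Plec, which encodes the linker plectin, had 1748, 1540, 0, 891, 0 and 0 bp, and a neighbouring member 1187, 665, 744, 914, 0 and 0 bp. Nhsl1 had 1314, 1236, 752, 1348, 0 and 0 bp around the start printed above, while a member over another host start had 951, 886, 640, 855, 342 and 476 bp. Ppard, a lipid-sensing nuclear receptor, had 1320, 1576, 268, 1259, 0 and 0 bp. By the rule that chose these members Ctrl had 2 peaks and THC none, while SR2 varied. One SR2 library had no peak at the wider Plec member and at Ggta1. Of the 8, 6 remained Ctrl-only when such weaker peaks were dropped and 3 with equal numbers of peaks.

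SR2-only members included one at Csn3, which encodes the milk protein kappa-casein, with 430 and 344 bp in SR2 and no peak in the other 4 libraries (chr5:87927001-87927430). The others named were at Sp6, Cntnap2, Rusc2, Ndst1, Dgkd, Itpr2 and Map2k6, with 316 to 724 bp in single SR2 libraries. The THC-only members named were at Sfi1 and Raet1e, which overlapped H3K27me3 in 5 and 4 libraries. Raet1e had 904 bp in SR2 replicate 1 as well, more than its 460 and 369 bp in THC. A wider Sfi1 member (chr11:3184296-3186230) had 938, 1075, 1750, 1737, 1179 and 1935 bp, with both Ctrl libraries below the 4 treated ones, and it was one of the 8 with H3K27me3 in all 6 libraries.

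Breadth, the covered bp of a region in a library, was tested with limma over all 15771 regions marked in at least 2 libraries, 3265 of them members, on log2(bp + 200) with libraries centred on the regions marked in all 6. A member that passed this filter through the group where it was high had to differ, so the counts describe the tested members and support nothing about the class. After adjustment over all regions 0 members and 0 regions (0%) were called in each of the 3 contrasts. The smallest adjusted p was 0.122 when SR2 was set against Ctrl, 0.128 for THC, and 0.318 between the treatments. The calls depend on the scale, since 479 members were called for SR2 and 582 for THC with a pseudocount of 50 bp, and 453 and 687 without centring. At an unadjusted p under 0.05, 560 members had less breadth in SR2 than in Ctrl and 21 more (17.2% and 0.643% of 3265, background 8.91% and 0.653%). For THC against Ctrl the counts were 998 and 75 (30.6% and 2.30% of 3265, background 18.4% and 4.41%). For THC against SR2 they were 285 and 34 (8.73% and 1.04% of 3265, background 6.84% and 1.84%). Median log2 changes of the tested members were −0.16, −0.61 and −0.15, against −0.03, −0.15 and −0.03 over all regions tested. Centring removed a shift of −0.14 between SR2 and Ctrl, −0.38 between THC and Ctrl and −0.24 between the treatments, and changes are relative to it. Without centring the medians over all regions tested were −0.17, −0.52 and −0.27. The counts and medians depend on the scaling. With quantile normalization 193 members had less and 76 more breadth in SR2 than in Ctrl, and 233 less and 210 more in THC, with median changes of 0.00 and 0.04, so the direction of the median did not hold. With equal numbers of peaks (1819 members tested) the counts were 59 and 31 for SR2 and 202 and 80 for THC, with medians of −0.01 and −0.11. At an unadjusted p under 0.05, 2903 of all regions had less and 695 more breadth in THC than in Ctrl with centring, and 5938 and 11 without it.

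The largest changes among members did not pass adjustment either. Plekha7 had a log2 change of −2.62 (SE 0.35, limma adjusted p 0.122) for SR2. Pard3 had one of −2.98 (SE 0.32, limma adjusted p 0.128) for THC. Csn3 had one of 1.69 (SE 0.32, limma adjusted p 0.122) for SR2. For THC against SR2, Nhsl1 had −2.36 (limma adjusted p 0.318), with 752 and 1348 bp in SR2 and no THC peak. Where a library has no peak, the size of these changes depends on the pseudocount. Whether they understate or overstate the change in the mark was not tested. Of all 3265 tested members 30.6% had less breadth in THC than in Ctrl at an unadjusted p under 0.05. Of the tested members of the junction list, 16 of 46 (34.8%) had less breadth in THC than in Ctrl at an unadjusted p under 0.05, with a median log2 change of −0.91, and 0 had more. For the lineage regulators the counts were 9 (20.5%) and 0 of 44 with a median of −0.51, and for the internal promoter list 9 (20.5%) and 0 of 44 with a median of −0.61, the median of all tested members. With quantile normalization the medians of the 3 lists were −0.17, 0.17 and −0.07, so the sign for the lineage regulators flipped. For the 1203 members marked in all 6 libraries, the median covered bp was 1239, 1158, 1007, 1109, 712 and 967, and for the 8577 gene-end regions marked in all 6 it was 1293, 1214, 1081, 1171, 825 and 1044 bp. Relative to the Ctrl median, members stood at 59.2% and 80.4% in THC replicates 1 and 2 and gene-end regions at 65.9% and 83.4%.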

How the data were processed

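CUT&Tag libraries for H3K4me3 and H3K27me3 were made from the organoids, with 2 per mark and group, 12 in all. The genome build is mm10 and the tools are MACS3, bedtools, deepTools, SAMtools 1.8, Picard, Bowtie2 2.5.4 and cutadapt 5.2, per the submitters' processing notes, which give no settings here. The authors deposited 1 narrowPeak list per library. Each deposited list gives a start and end, an integer score, a fold enrichment (ratio to background) at the summit, a −log10 p and a −log10 q. No read counts are part of the lists, so the depth per library is unknown.

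Peaks on chromosomes 1 to 19 and X were merged at an overlap of 1 bp and classed with the RefSeq gene table. Covered bp per library were tested with limma 3.58.1 (R 4.3.3) on log2(bp + 200), with mean and variance trend, over regions marked in at least 2 libraries. P-values were adjusted by Benjamini-Hochberg over all 15771 regions. Single values were tested by exact permutation or sign-flip tests in Python 3.11.15 with scipy 1.17.1. On simulated data for SR2 against Ctrl over 15771 regions the fit recovered 98% of the regions changed by −3 and 98% of those changed by −1.5 on the log2 scale, with 8 false calls. The simulation gave every region the same spread and no library without a peak. It therefore does not show how often the fit would call real members that lack a peak in some libraries. Over 6297 regions, the chi-square per degree of freedom of recovered summit pileups was 0.884, 1.00 and 0.812 for the replicate pairs and 0.754 to 1.48 for 12 pairs of different groups, 5 of them below 1. This measure did not separate replicates from other pairs, their peak lists differed, and no libraries were joined. The replicate number is the batch number in the labels. Deviations from the group means had correlations of −0.0620, 0.0344 and 0.0477 between same-numbered libraries, and the fit with the replicate block is an alternative.

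Named members are the 10 widest marked in all 6 libraries, the 8 genes with most members, the 5 largest changes in each direction, the 8 widest Ctrl-only or treated-only members, the 6 widest at noncoding gene ends or with H3K27me3, and up to 4 per gene list. Others were chosen after their values were seen, among them those at Trp63, Elf5, Esr1, Runx1, Gata3, Shroom3, Epcam, Cdh1, Kcnq1, Igf2r, Gnas, Trappc9, Vmp1 and Dst. All 181 list genes were matched by symbol. The members and lists were chosen with earlier results of these data known. Sequences come from the RefSeq promoter table of GRCm38.p6. Exons, introns and UTRs were not analysed here. Some withheld items are not reported here.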

Additional observations from a re-analysis of the deposited data

How the results depend on the processing

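The class held 3410 members when peaks below a −log10 q of 5 were dropped and 2720 with equal numbers of peaks per library, in 2702 and 2315 host genes. The differences in the share of peaks from Ctrl turned from negative to 0.0252 percentage points for SR2 and 0.0335 for THC with equal numbers of peaks. Leaving out 1 library, the differences from gene ends were −500.5 to −438 bp in peak length, −36.0 to −33.9 in −log10 q percentile and −3.64 to −3.14 in fold, all with p = 0.0625, the smallest that an exact sign-flip test over 5 libraries allows. The share of members marked in every library was 12.4% beyond 5000 bp of gene ends, 15.3% with the ends of every gene, 27.7% with the q limit, 42.3% with equal numbers of peaks and 18.2% to 22.5% without 1 library. Ctrl-only members for SR2 numbered 320 with the q limit, 45 with equal peaks and 512 to 1903 without 1 library. For THC they numbered 108 with equal peaks and 1050 to 2646 without 1 library. SR2-only members numbered 3, 23 and 12 to 728 under these 3 settings, and THC-only members 0, 15 and 3 to 381, with 1 beyond 5000 bp. Members overlapping H3K27me3 numbered 112 beyond 5000 bp and 102 with 50% of the member covered. Members at noncoding gene ends numbered 342 beyond 5000 bp and 314 with equal peaks, and the ends of every gene leave none by construction.

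Members called by limma, 0 in each contrast as reported, numbered 479 for SR2 and 582 for THC with a pseudocount of 50 bp, and 453 and 687 without centring. For THC they numbered 8 with regions marked in at least 1 library, 749 with only the 4 libraries compared, and 0 to 410 without 1 library, the 410 without THC replicate 2. For THC against SR2 the range was 0 to 215, the 215 also without THC replicate 2. Where 1 library was left out, the lone library of its group is assumed to vary like the others. The cause of these changes was not tested. With the replicate block 0 members were called in each of the 3 contrasts, so the pairing changed no call. Of the values for the members named for the largest changes, 324 kept their side of the threshold, 50 passed it under an alternative and 0 reversed. These members were chosen in the same data for large changes between groups that did not overlap. A reversal was therefore unlikely from the outset, and the count is no test of the changes. Other named members are not part of it. Depth is unknown, so a missing peak cannot be told from a shallow library. The shares between single libraries and the scalings of the gene lists were added after the data were seen.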
